A study of Homo sapiens with 6 samples.

Results

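The genes of the proteasome were measured by RNA sequencing in HepaRG cells, a human line that differentiates into hepatocyte-like and biliary-like cells, with and without a fatty acid load. Members were all protein-coding rows of the deposited gene table whose symbol begins with PSM followed by a letter from A to G and a number, with PSMB8 and PSMB9 set apart by the selection rule. This gave 46 genes of 58037 rows, of which 19950 were protein-coding. They comprised 17 genes of the core particle, 17 of the regulatory cap, 5 activators or inhibitors and 7 assembly chaperones. The rule used names and gene type and no measured value, but it was chosen with earlier results of these data known.

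All cells came from passages 15 to 18, grew for 14 days, were differentiated for 14 days and then spent 5 days in a basal medium with insulin and hydrocortisone. The 3 control samples then received 0.02% bovine serum albumin for 72 h. The 3 fatty acid samples received 0.5 mM palmitate and oleate, mixed 1 to 2 and bound to albumin at 0.02%, also for 72 h. The stated subject of the series was the effect of oleate and palmitate on drug metabolism genes in a cell model of fatty liver, and not the proteasome. Nothing in the labels tells if the 3 replicates of a group came from separate cultures, and p-values therefore measure only how far these samples differ, a spread that can be technical. HepaRG is a single tumour-derived line, described in the labels as hepatocellular carcinoma cells.

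The proteasome is the main protease of the cytosol and nucleus, and it degrades proteins that carry ubiquitin chains. Its core is a barrel of alpha subunits, which gate the entrance, and beta subunits, of which 3 kinds cut peptide bonds. A cap with a ring of ATPases unfolds the substrate, and the lid of the cap removes the ubiquitin. Alternative activators bind the same alpha ring without ATPases, and dedicated chaperones build the core and the base of the cap. In many cells the proteasome genes are controlled together through NFE2L1, a transcription factor that binds antioxidant response elements in their promoters. In hepatocytes the proteasome also degrades lipid-droplet proteins and apolipoprotein B that has not been lipidated.

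Upstream sequences of 4 members are shown because most members had a difference of the same sign and because the antioxidant response element is the site through which NFE2L1 acts. PSMC6 and PSMD1 rose in fatty acid cells, while PSMB3 and PSMD12 did not pass the test. They were chosen after their values were seen, among members whose RefSeq start lies within 50 bases of the deposited one. The sequences are from RefSeq on GRCh38.p14, read 5′ to 3′ on the strand of the gene, and end at the base before the gene start in the deposited table. Capitals mark the core antioxidant response element, TGACNNNGC, and the CCAAT box, both searched on both strands.
PSMB3, chr17:38752491-38752735, plus strand: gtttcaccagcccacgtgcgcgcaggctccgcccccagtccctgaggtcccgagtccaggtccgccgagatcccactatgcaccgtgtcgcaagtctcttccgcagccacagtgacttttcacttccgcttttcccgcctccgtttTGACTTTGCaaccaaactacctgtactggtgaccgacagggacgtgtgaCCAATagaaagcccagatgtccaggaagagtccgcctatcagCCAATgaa
PSMD12, chr17:67366628-67366827, minus strand: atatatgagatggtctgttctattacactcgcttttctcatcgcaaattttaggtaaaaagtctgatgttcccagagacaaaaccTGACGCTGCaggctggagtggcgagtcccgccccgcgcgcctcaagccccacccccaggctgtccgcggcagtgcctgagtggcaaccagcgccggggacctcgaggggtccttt
PSMC6, chr14:52706950-52707171, plus strand: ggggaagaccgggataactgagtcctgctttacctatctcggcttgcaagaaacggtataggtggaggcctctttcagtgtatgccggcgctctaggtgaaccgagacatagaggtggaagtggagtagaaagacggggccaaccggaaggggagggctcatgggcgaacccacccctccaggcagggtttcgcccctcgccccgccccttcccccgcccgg
PSMD1, chr2:231056617-231056863, plus strand: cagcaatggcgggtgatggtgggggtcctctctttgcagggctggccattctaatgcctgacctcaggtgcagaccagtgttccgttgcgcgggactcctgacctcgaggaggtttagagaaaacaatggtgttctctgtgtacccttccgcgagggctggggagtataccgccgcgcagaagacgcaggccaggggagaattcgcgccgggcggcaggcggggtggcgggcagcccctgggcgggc

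The PSMB3 window held the element as TGACTTTGC, 99 bases before the gene start, and 2 CCAAT boxes closer to it. The PSMD12 window held it as TGACGCTGC, 115 bases before the start. Neither motif was found in the PSMC6 and PSMD1 windows shown. RefSeq windows of 250 bases upstream were matched by symbol for 40 of the 46 members, some with more than 1 start, and 12 of the 40 (30.0%) held the element. Over all 27305 symbols with a window the share was 13.2%, and among the 9693 tested genes with a window it was 16.0%, against 31.6% of the 38 tested members with a window. The CCAAT box, which can share no more than an end base with the element, was held by 44.7% of those 38 members and by 41.9% of the tested genes. These are letter matches in fixed windows, given as a description. The 12 tested members with an antioxidant response element had a median log2 fold change of 0.17, with 2 called higher, PSMA4 and PSMG1. The 26 without it had a median of 0.15, with 4 called higher. These counts used the full RefSeq windows, not cut at the deposited gene start. The windows holding the element in PSMA4 and PSMG1 have RefSeq starts 381 and 400 bases inside the deposited start.

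Libraries held 6331370 to 11821422 reads assigned to genes in the control group and 8364569 to 15941353 in the fatty acid group. Values are FPKM, reads scaled by the length of the gene model and by the total of the library, and differences are log2 fold changes of FPKM + 0.5, fatty acid minus control, with limma standard errors. A gene is called at a Benjamini-Hochberg adjusted p under 0.05 over the 14661 genes that averaged 0.5 FPKM or more across the libraries. Of these genes, 8.22% were called higher, 4.68% lower and 12.9% in either direction, and their median log2 fold change was 0.04. Reads of mitochondrially encoded genes made up 9.15% to 11.9% of the fatty acid libraries and 12.2% to 15.0% of the control libraries, and FPKM divides by all reads, mitochondrial ones included. Of 22 hepatocyte markers, 21 were tested, 16 fell and 4 rose, the latter being FGA, FGB, FGG and SERPINA1. Their summed level was 20184 to 20674 FPKM in control cells and 16613 to 17029 in fatty acid cells. ALB was the largest part of that sum, with means of 12025 FPKM in control and 7127 FPKM in fatty acid cells. The sum therefore does not stand for every marker. KRT19, a biliary marker, had a control mean of 343 FPKM, while EPCAM and SCTR of the same list were at 0 in all 6 libraries, as were THY1 of the mesenchymal list and CDH5 and CD3E of the immune and endothelial list. None of the 4 tested biliary markers was called. Of the mesenchymal list, 1 marker of 7 tested rose and 1 immune or endothelial marker of 3 tested fell. In bulk RNA, fewer cells of a type and less RNA per cell cannot be told apart. The part of these shifts in the results on proteasome genes was not tested. The scaling to nuclear reads given with the counts adjusts for the mitochondrial share of reads only, not for the cell markers.

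Most proteasome genes had a small positive difference in fatty acid cells, and few passed the test. Of the 44 members tested, 6 rose, none fell and 38 were not called, so that 13.6% were called higher beside 8.22% of all tested genes. The 6 were PSMA4 and PSMB2 of the core, PSMC2, PSMC6 and PSMD1 of the cap, and PSMG1 among the chaperones, with mean FPKM higher by 15.3% (PSMC2) to 21.4% (PSMG1). At an unadjusted limma p under 0.05 there were 17 members higher and 1 lower, PSME2, where the shares over all genes were 19.1% and 11.4%. The median log2 fold change of the members was 0.14 and the range -0.19 to 0.46, with 37 of 44 above 0 (84.1%, against 57.2% of all genes). The fatty acid libraries all lay above the control libraries for 22 of 44 members (against 23.7% of all genes) and all below for 1 (against 13.3%). No 95% confidence interval of a member went below a fold of 0.769 or above 1.76, the bounds for PSME2 and PSMB10. These folds are of FPKM + 0.5, which makes differences of low genes smaller. The fitted fold of PSMB10 was 1.38, while its mean FPKM was 49.1% higher in fatty acid cells.

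**Figure D1:**
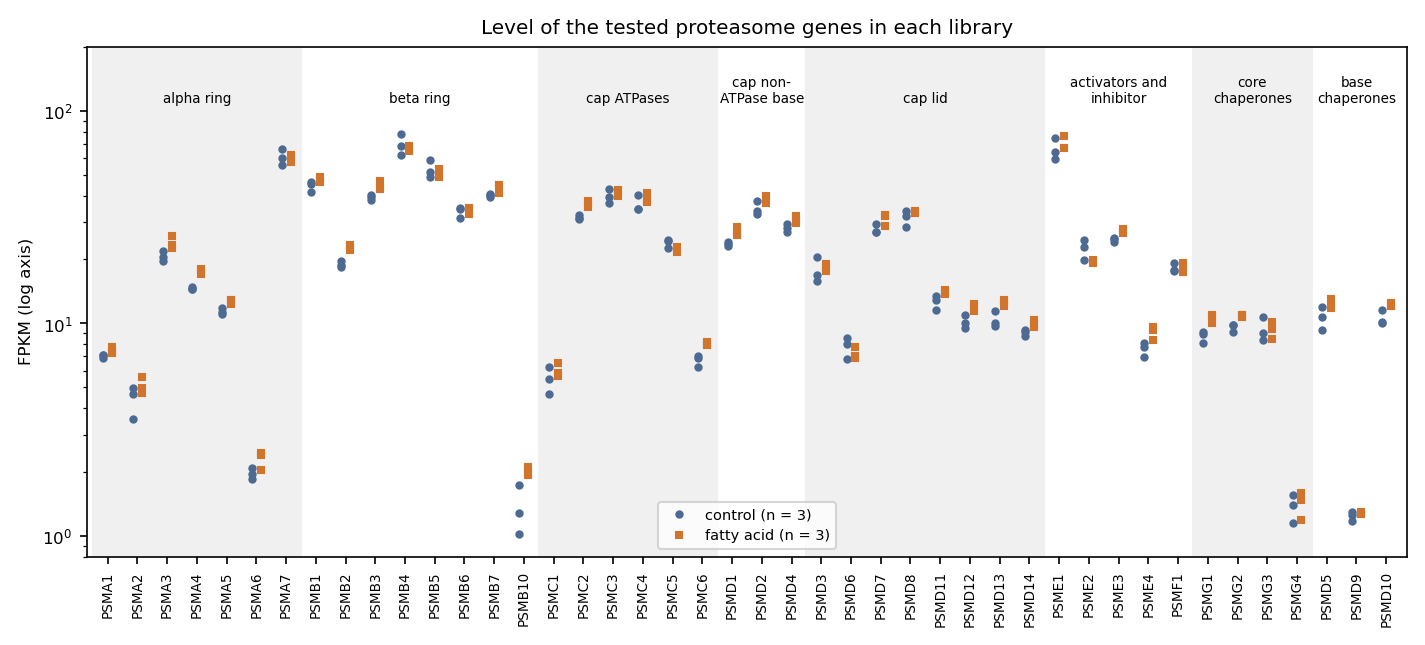
FPKM of each tested proteasome gene in each of the 6 libraries, on a log axis, with circles for control and squares for fatty acid samples (n = 3 each) and genes ordered by role. Levels ran from 1.24 FPKM for PSMD9 to 70.1 FPKM for PSME1 as group means, and the distance between groups was small beside the distance between genes.

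The number of calls depended on single libraries and on the scale. Leaving out fatty acid replicate 1 or 2, or fitting limma without the intensity trend, left 0 members called, leaving out control replicate 2, control replicate 3 or fatty acid replicate 3 left 1 called higher, and leaving out control replicate 1 gave 7. PSMA4 kept its call without control replicate 1, control replicate 2 or fatty acid replicate 3, PSMB2 without control replicate 1 or 3, PSMD1 and PSMG1 without control replicate 1 only, and PSMC2 and PSMC6 in none of the 6 fits. Over the same leave-one-out fits, the share of all genes called higher fell to between 1.56% and 7.57%. Scaling to nuclear reads called 1 member higher, PSMA4, and rescaling to TPM called 18, when 4.84% and 17.8% of all genes were called higher. The median of the members exceeded that of all genes by 0.09 as deposited, 0.09 with nuclear scaling, 0.10 with TPM, 0.09 with median-of-ratios scaling and 0.06 with quantile normalization. TPM moved the median of all genes by 0.13, and the members' median of 0.27 stood beside 0.18 for all genes there. Over these scalings 33 to 43 of the 44 members had a positive difference.

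**Figure D2:**
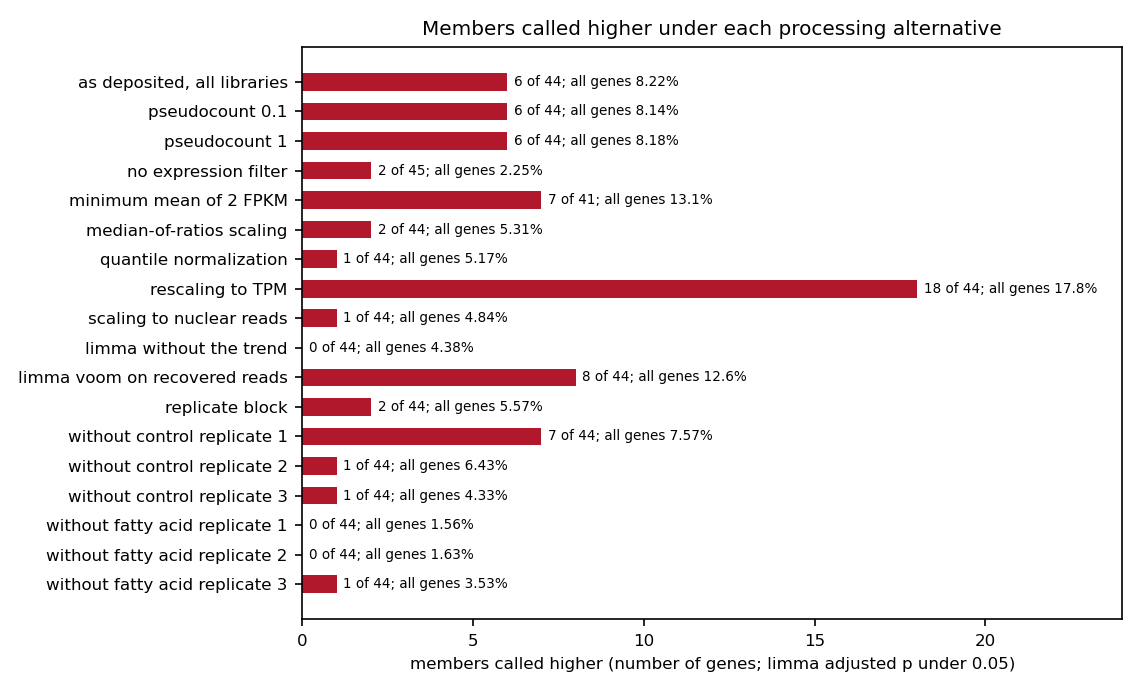
Number of members called higher (limma, adjusted p under 0.05) in the deposited values and under each of 17 alternatives in scale, filter, test or libraries. The count was 6 as deposited, 18 after rescaling to TPM, and 0 or 1 when any of the 5 libraries other than control replicate 1 was left out.

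In the core particle, 2 of 15 tested genes rose (13.3%, beside 8.22% of all tested genes) and 13 were not called. The median log2 fold change was 0.15, beside 0.04 for all tested genes. PSMA4 (ENSG00000041357.15, GRCh38 chromosome 15, 78540405 to 78552419) encodes an alpha subunit of the ring that gates the barrel. It was at 14.6, 14.9 and 14.5 FPKM in control cells and at 18.1, 17.9 and 17.1 FPKM in fatty acid cells. The lowest fatty acid library thus lay above the highest control library by more than the spread within either group. The means were 14.7 ± 0.19 and 17.7 ± 0.52 FPKM (SD, n = 3 each), and the log2 fold change was 0.26 ± 0.05 (SE; adjusted p = 0.0204, limma). PSMA4 was called under 13 of 17 alternatives, more than any other member.

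Of the other alpha subunits none was called. The alpha ring of 7 tested genes had a median log2 fold change of 0.17, beside 0.04 for all tested genes. In 4 of the 7 every fatty acid library lay above every control library, as in 23.7% of all tested genes. PSMA3 measured 22, 19.7 and 20.4 FPKM in control cells and 23.5, 25.8 and 22.6 in fatty acid cells (log2 fold change 0.20 ± 0.07, adjusted p = 0.0948). PSMA7, the most abundant alpha subunit transcript by FPKM, measured 66.4, 55.5 and 59.9 against 57.7, 61.7 and 62.1, with a 95% interval of the difference from -0.17 to 0.17. Its groups overlapped, and as a fold the interval ran from 0.890 to 1.13. PSMA8, a subunit known from the testis, had 3 reads in control replicate 1 (0.177 FPKM) and 0 in the other 5 libraries, and was not tested.

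The 3 constitutive subunits that cut peptides were not called. PSMB5, the chymotrypsin-like subunit, measured 59.0, 51.5 and 48.9 FPKM in control cells and 50.3, 53.3 and 48.9 in fatty acid cells, a log2 difference of -0.06 with an interval of -0.24 to 0.12. PSMB6, the caspase-like subunit, measured 34.6, 35.0 and 31.5 against 34.4, 34.9 and 32.7, a difference of 0.01 with an interval of -0.12 to 0.15. Both genes overlapped between groups, and the sign of the difference changed with the scale, to 0.07 for PSMB5 under TPM and to -0.04 for PSMB6 under nuclear scaling. PSMB7, the trypsin-like subunit, measured 39.3, 40.4 and 40.6 FPKM against 41.1, 44.7 and 45.0, with no overlap and a log2 difference of 0.12 ± 0.05 (adjusted p = 0.18).

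PSMB2, a beta subunit without catalytic activity, was the beta-ring gene that rose (ENSG00000126067.11, GRCh38 chromosome 1, 35599544 to 35641844). Control libraries were at 18.8, 18.5 and 19.6 FPKM and fatty acid libraries at 22.1, 23.4 and 22.8 FPKM. The means of 19.0 ± 0.605 and 22.8 ± 0.638 (SD, n = 3 each) gave a log2 fold change of 0.26 ± 0.05 (adjusted p = 0.0228). The call was kept under 10 of 17 alternatives, and the groups did not overlap. Among the other structural beta subunits, PSMB3 measured 40.3, 38.2 and 39.3 against 42.8, 46.7 and 43.4 FPKM (0.17 ± 0.05, adjusted p = 0.0791), PSMB1 differed by 0.11 (adjusted p = 0.244) and PSMB4 by -0.05 (adjusted p = 0.711). PSMB4 ranged from 62.3 to 78.3 FPKM in the control group. PSMB11, the beta subunit of the thymus, had no read in any library.

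PSMB10 replaces PSMB7 in the interferon-inducible immunoproteasome, and it had the largest fitted difference of all members. It measured 1.75, 1.02 and 1.28 FPKM in control cells and 2.00, 2.10 and 1.93 in fatty acid cells, from 69 reads and 144 reads in all. Every fatty acid library was higher than every control library, but the control libraries differed by 27.2% (coefficient of variation), the widest of the members. The log2 fold change was 0.46 ± 0.15 with an adjusted p of 0.0887, so PSMB10 was not called. With a pseudocount of 0.1 in place of 0.5 the log2 fold change was 0.57 (adjusted p = 0.0889, limma). PSMB10 was called without control replicate 1 (adjusted p = 0.027) and under TPM (adjusted p = 0.0399). The other inducible subunits, which the rule sets apart, were not called: PSMB8 measured 31.1 ± 2.12 FPKM in control and 32.8 ± 1.10 FPKM in fatty acid cells (0.08 ± 0.06, adjusted p = 0.447), and PSMB9 6.67 ± 0.128 and 7.21 ± 0.438 FPKM (0.10 ± 0.07, adjusted p = 0.339).

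As ratios within a library, PSMB8 to PSMB5 was 0.568, 0.580 and 0.609 in control cells and 0.628, 0.618 and 0.691 in fatty acid cells, and the groups did not overlap. The ratio of PSMB10 to PSMB7 ranged from 0.0253 to 0.0445 in control and from 0.0429 to 0.0486 in fatty acid cells, and that of PSMB9 to PSMB6 from 0.186 to 0.215 and from 0.207 to 0.220, both with overlap. Over all tested genes 8.22% were called higher and 4.68% lower. A list of 12 interferon-response genes was used beside the inducible subunits, and was chosen with earlier results of these data known. It had 6 genes higher and none lower, among them GBP1, GBP2 and CXCL10. Among those not called, IFIT1 differed by -0.18 with every fatty acid library below every control library (adjusted p = 0.193), NLRC5 by -0.11 and ISG15 by -0.02. The summed level of the list was 101.8 to 111.5 FPKM in control and 122.9 to 134.3 FPKM in fatty acid cells. The link between that list and PSMB10 was not tested.

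**Figure D3:**
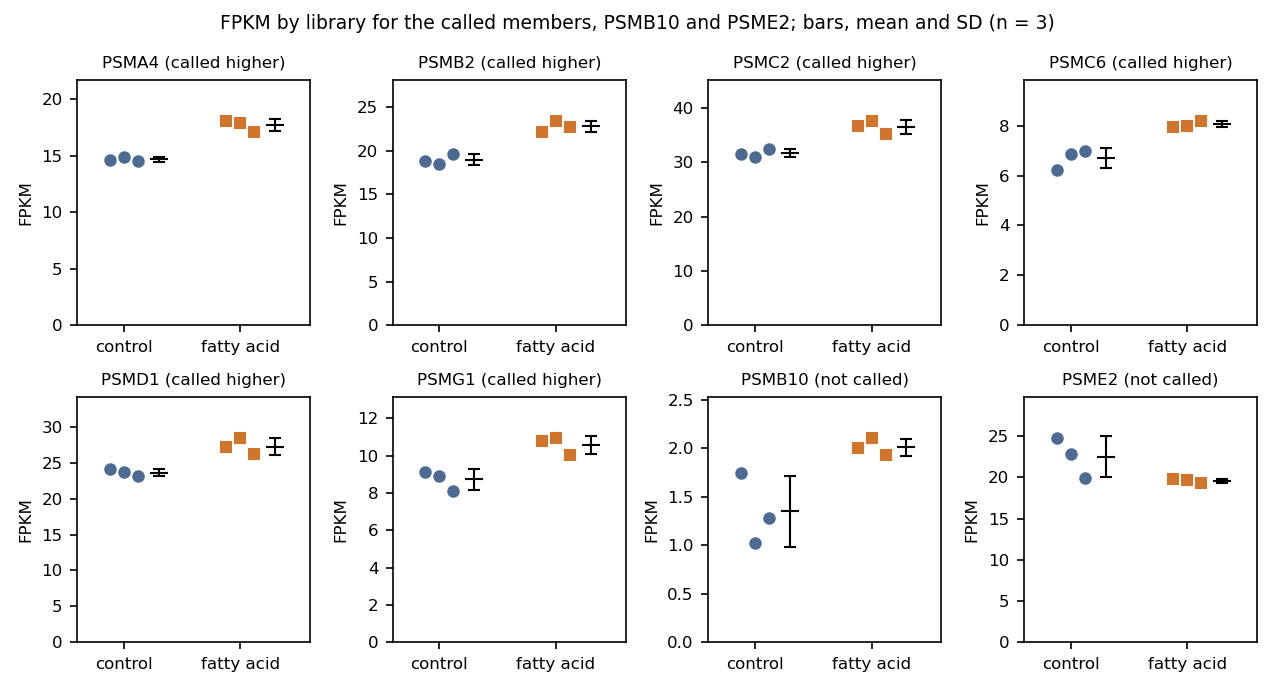
FPKM in each library, with the mean and SD of each group (n = 3), for the 6 members called higher and for PSMB10 and PSME2, which were not called. In the 6 called genes, shown because of their call, all fatty acid samples lie above all control samples, and in PSME2 they all lie below.

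The regulatory cap had 3 of 17 genes higher (17.6%, beside 8.22% of all tested genes) and 14 not called. Its median log2 fold change was 0.14. Its ATPase ring unfolds substrates and feeds them into the core, and 2 of its 6 genes rose. PSMC2 (ENSG00000161057.10, GRCh38 chromosome 7, 103344254 to 103369395) was at 31.5, 31.0 and 32.5 FPKM in control cells and at 36.7, 37.6 and 35.2 in fatty acid cells. The means were 31.7 ± 0.753 and 36.5 ± 1.25 FPKM and the log2 fold change 0.20 ± 0.05 (adjusted p = 0.0414), with no overlap. PSMC6 (ENSG00000100519.11, GRCh38 chromosome 14, 52707172 to 52728587) was at 6.23, 6.86 and 7.0 FPKM against 7.96, 8.0 and 8.19. Its means of 6.70 ± 0.408 and 8.05 ± 0.124 FPKM gave 0.25 ± 0.07 (adjusted p = 0.0489), with the fatty acid libraries closer to each other than the control libraries. Each of the pair was called under 5 of 17 alternatives, and neither in any fit that left out a library.

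The remaining ATPases were not called. PSMC1 differed by 0.14 ± 0.11 (adjusted p = 0.436), PSMC3 by 0.05 (adjusted p = 0.601) and PSMC4 by 0.09 (adjusted p = 0.434). PSMC5 was the ATPase with a negative difference, at 24.7, 24.4 and 22.6 FPKM in control and 22.9, 22.2 and 21.7 in fatty acid cells (-0.10 ± 0.06, adjusted p = 0.281). Its groups overlapped, and under TPM the value was 0.04.

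Beside the ATPases, the base of the cap holds large scaffold proteins and a ubiquitin receptor. PSMD1, a scaffold of the base, rose (ENSG00000173692.12, GRCh38 chromosome 2, 231056864 to 231172827). It was at 24.1, 23.6 and 23.1 FPKM in control cells and at 27.1, 28.4 and 26.2 in fatty acid cells. The means of 23.6 ± 0.507 and 27.2 ± 1.12 FPKM differed by 0.20 ± 0.05 (adjusted p = 0.0481), and the call held under 6 of 17 alternatives. PSMD2, the other scaffold, measured 34.7 ± 2.63 and 38.7 ± 1.74 FPKM (0.16, adjusted p = 0.169), and the receptor PSMD4 28.1 ± 1.26 and 30.6 ± 1.22 FPKM (0.12, adjusted p = 0.203).

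None of the 8 lid genes was called, and their median log2 fold change was 0.14. At an unadjusted limma p under 0.05, 3 were higher, where the share over all genes was 19.1%. PSMD13, a structural subunit, came closest, with 11.5, 9.71 and 10.1 FPKM in control and 12.9, 12.7 and 12 in fatty acid cells (0.26 ± 0.07, adjusted p = 0.0614). PSMD12, whose upstream window holds the antioxidant response element, followed with 9.5, 10.9 and 10.1 FPKM against 11.9, 12.3 and 11.5 (0.22 ± 0.07, adjusted p = 0.0786). Both had groups that did not overlap, as had PSMD11 (0.16, adjusted p = 0.155) and PSMD14. PSMD14, the deubiquitinase that cuts chains off the substrate, measured 9.14, 9.34 and 8.72 FPKM against 10.4, 9.92 and 9.57 (0.13, adjusted p = 0.201). Its partner PSMD7 measured 27.8 ± 1.52 and 31.0 ± 2.04 FPKM (0.16, adjusted p = 0.17). PSMD6 was the lid gene with a negative difference, -0.10 ± 0.09 (adjusted p = 0.511), and PSMD3 and PSMD8 differed by 0.06 and 0.09 with overlapping groups.

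**Figure D4:**
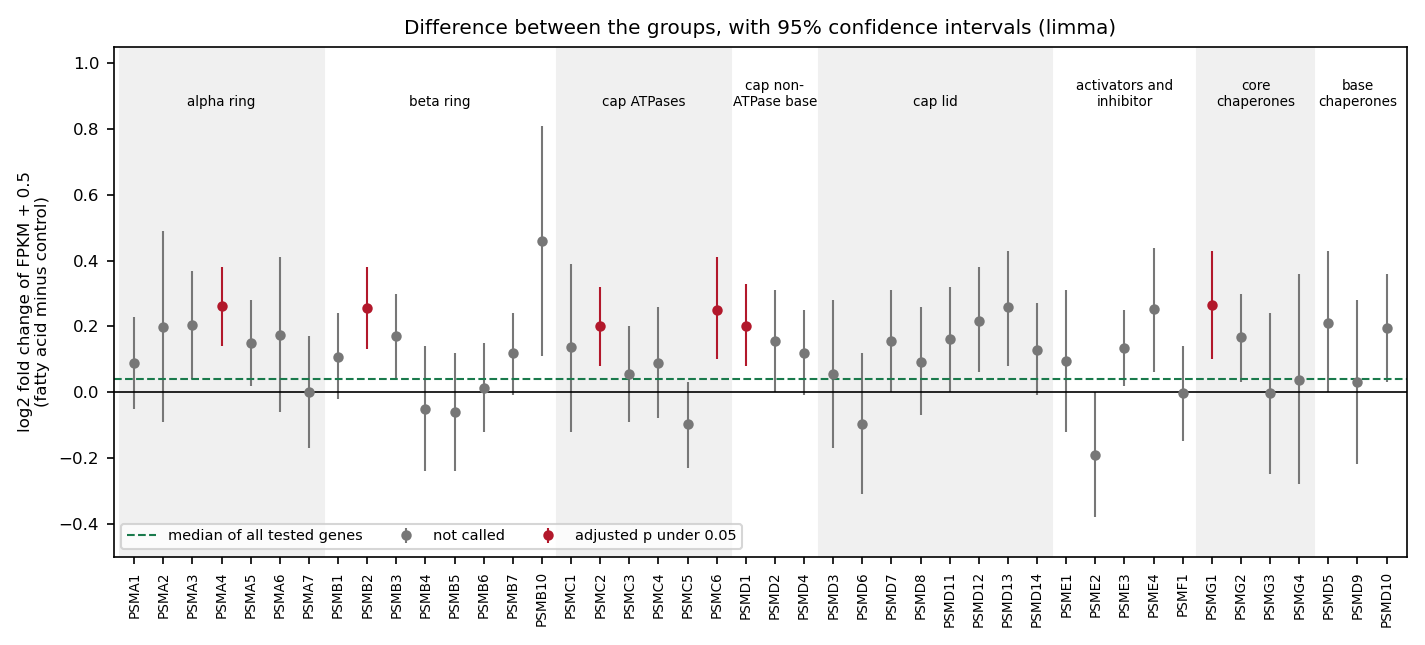
Log2 fold change of FPKM + 0.5, fatty acid minus control, of each tested member with its 95% confidence interval from limma, coloured by call, and the median of all 14661 tested genes (0.04) as a dashed line. Intervals of the 6 called genes exclude 0, which the call itself requires, and PSMB10, at 0.46, has the widest interval.

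Activators and the inhibitor, which compete for the ends of the core barrel, had none of 5 genes called and a median log2 fold change of 0.09. At an unadjusted limma p under 0.05, 2 were higher and 1 lower, where the shares over all genes were 19.1% and 11.4%. PSME4, a large single-chain activator of the nucleus, measured 7.72, 8.07 and 6.95 FPKM in control and 9.34, 9.67 and 8.35 in fatty acid cells (0.25 ± 0.08, adjusted p = 0.0867). PSME3, a nuclear activator that forms a ring of its own, measured 24.2, 25.0 and 25.3 FPKM against 27.8, 27.4 and 26.6 (0.13 ± 0.05, adjusted p = 0.115). In both genes every fatty acid library lay above every control library. PSMF1, an inhibitor of the core, measured 18.2 ± 0.861 and 18.2 ± 0.901 FPKM, with an interval of the log2 difference from -0.15 to 0.14.

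PSME1 and PSME2 form 1 mixed ring that interferon induces, and their fitted differences had opposite signs. PSME1 measured 74.4, 63.8 and 59.4 FPKM in control and 67.1, 76.5 and 66.7 in fatty acid cells, with overlapping groups (0.09 ± 0.09, adjusted p = 0.534). PSME2 measured 24.8, 22.9 and 19.9 FPKM against 19.8, 19.7 and 19.3, the member with the lowest fitted difference (-0.19 ± 0.08, adjusted p = 0.156). The gap between the groups of PSME2 was narrow, since control replicate 3 lay close to the fatty acid libraries, and without it PSME2 was called lower at -0.28 (adjusted p = 0.0495). The ratio of PSME1 to PSME2 was 3.01, 2.79 and 2.98 in control cells and 3.39, 3.89 and 3.46 in fatty acid cells, with no overlap. The PSME2 comparison and both ratios without overlap were singled out after their values were seen, and the ratios carry no test across genes.

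Chaperones that build the core include PSMG1 and PSMG2, which pair to assemble the alpha ring, and PSMG3 and PSMG4, which form a further pair. PSMG1 rose (ENSG00000183527.11, GRCh38 chromosome 21, 39174769 to 39183851), from 9.14, 8.92 and 8.11 FPKM in control to 10.8, 10.9 and 10.0 in fatty acid cells. The means were 8.72 ± 0.543 and 10.6 ± 0.488 FPKM and the log2 fold change 0.27 ± 0.07 (adjusted p = 0.0471), called under 5 of 17 alternatives. PSMG2 measured 9.87, 9.13 and 9.88 FPKM against 10.8, 10.9 and 10.9, also with no overlap (0.17 ± 0.06, adjusted p = 0.103). The ratio of PSMG1 to PSMG2 overlapped between the groups, at 0.820 to 0.977 in control and 0.917 to 1.00 in fatty acid cells. PSMG3 and PSMG4 had overlapping groups and differences whose intervals ran from -0.25 to 0.24 and from -0.28 to 0.36.

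Chaperones of the cap base were not called. PSMD10, also known as gankyrin, measured 10.2, 10.1 and 11.6 FPKM in control and 12.1, 12.5 and 12.1 in fatty acid cells (0.20 ± 0.07, adjusted p = 0.107), without overlap. PSMD5 measured 9.34, 10.8 and 11.9 FPKM against 12.4, 13.0 and 11.8 (0.21 ± 0.09, adjusted p = 0.172) with overlap, and PSMD9 lay between 1.17 and 1.30 FPKM in all libraries. Summed over the 7 chaperones, the level was 51.7, 50.5 and 52.8 FPKM in control and 58.9, 58.6 and 56.8 FPKM in fatty acid cells, a mean 12.5% higher. Sums over the core, the cap and the activators were 4.88%, 8.56% and 3.83% higher and that over all members 6.49% higher, with overlapping groups, while those of the chaperones did not overlap. As shares of all reads, the groups overlapped for the activators but not for the core, the cap or the chaperones, and for the cap the gap lay between 0.1545% and 0.1550%. All members together took 0.315 ± 0.0115% of the reads in control and 0.340 ± 0.0104% in fatty acid cells (SD, n = 3 each). Of nuclear reads alone they took 0.365% and 0.379%, 4.04% more in the fatty acid group. Both shares were higher in every fatty acid library than in every control library, and for nuclear reads the gap lay between 0.373% and 0.375%.

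Other genes of the ubiquitin and proteasome system were taken from a list of 58 names, of which 53 were tested. The list was chosen with earlier results of these data known. Beside 8.22% of all tested genes called higher and 4.68% lower, 10 of the 53 rose while none fell. This was 3 of 10 other subunits and assembly factors, 1 of 13 genes of proteasome gene control, 1 of 4 ubiquitin precursors, 2 of 13 genes of ubiquitin activation, 3 of 11 shuttle factors and partners of the segregase, and none of the 2 inducible subunits. The median log2 fold change of the list was 0.13, beside 0.04 for all tested genes. At an unadjusted limma p under 0.05, 20 were higher and 1 lower, where the shares over all genes were 19.1% and 11.4%. The count called higher fell to 0, 1 and 2 without fatty acid replicates 1, 2 and 3. It was 6, 7 and 5 without control replicates 1, 2 and 3. In the same order, the share of all genes called higher was 1.56%, 1.63%, 3.53%, 7.57%, 6.43% and 4.33%. With nuclear scaling the count was 5 and with TPM 20, when 4.84% and 17.8% of all genes were called higher.

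POMP, the maturation factor of the core barrel, measured 43.2, 38.6 and 42.8 FPKM in control and 53.7, 50.3 and 49.4 in fatty acid cells (0.30 ± 0.06, adjusted p = 0.0243), and the call held under 12 of 17 alternatives. UCHL5, a deubiquitinase of the cap, rose from 4.27 ± 0.317 to 5.36 ± 0.277 FPKM (0.30 ± 0.08, adjusted p = 0.0486), called under 6 of 17 alternatives. KIAA0368, which encodes a proteasome adaptor also called ECPAS, rose from 14.8 ± 0.505 to 17.2 ± 0.371 FPKM (0.20 ± 0.05, adjusted p = 0.0481), called under 5 of 17 and in no fit that left out a library. All 3 thus encode proteins that bind or build the proteasome. Their groups did not overlap, in the same values that gave the calls.

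NFE2L1 itself measured 82.5, 75.0 and 72.0 FPKM in control and 72.9, 75.2 and 71.2 in fatty acid cells (-0.06 ± 0.06, adjusted p = 0.52). Its mRNA level says nothing of the protein, which is controlled by cleavage and turnover. SEL1L, an adaptor of the ligase complex that removes proteins from the endoplasmic reticulum, was the control gene that rose, from 21.0 ± 0.393 to 28.2 ± 2.38 FPKM (0.42 ± 0.07, adjusted p = 0.011). SEL1L was called under 16 of 17 alternatives, the most of the members and pathway genes for which this was counted. Among ubiquitin genes, RPS27A, which encodes ubiquitin fused to a ribosomal protein, rose from 101 ± 6.12 to 120 ± 5.46 FPKM (0.25 ± 0.06, adjusted p = 0.0412), called under 6 of 17 alternatives and in no fit that left out a library. UBB, which encodes a chain of ubiquitin units, was not called (326 ± 7.87 and 324 ± 12.3 FPKM, adjusted p = 0.946).

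UBA6, a ubiquitin-activating enzyme, rose from 3.52 ± 0.113 to 4.83 ± 0.592 FPKM (0.40 ± 0.10, adjusted p = 0.035), and UBE2K, a conjugating enzyme, from 11.9 ± 1.27 to 15.0 ± 0.697 FPKM (0.32 ± 0.08, adjusted p = 0.0482). Shuttle factors carry ubiquitinated proteins to the cap, and RAD23B rose from 58.1 ± 4.11 to 70.8 ± 1.6 FPKM (0.29 ± 0.06, adjusted p = 0.0266) and UBQLN1 from 15.3 ± 0.149 to 18.6 ± 0.51 FPKM (0.28 ± 0.05, adjusted p = 0.0161). UBXN4, a partner of the segregase VCP at the endoplasmic reticulum, rose from 22.6 ± 0.703 to 27.3 ± 0.641 FPKM (0.27 ± 0.05, adjusted p = 0.0178). In each of these 5 genes, named because of their call, the groups did not overlap. Of the 17 alternatives 9 called UBA6, 6 UBE2K, 8 RAD23B, 14 UBQLN1 and 13 UBXN4.

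The coefficient of variation over the 44 tested members had a median of 6.62% in control cells, with a maximum of 27.2%, and of 4.03% in fatty acid cells, with a maximum of 14.5%. Over all tested genes, control replicates 1 and 2 stood apart from each other, at 20.3 and -28.9 on the second principal component (23.1% of the variance), where the other 4 libraries lay between -3.98 and 6.51. Control replicate 1 was the highest control library for 23 of 44 members (52.3%, against 44.3% of all tested genes). Fatty acid replicate 3 was the lowest fatty acid library for 30 members, replicate 1 for 13 and replicate 2 for 1. For this count the share over all tested genes was not computed, so it is not a trait of the members. By level, the 11 most abundant members (34.1 to 68.2 FPKM) had a median log2 fold change of 0.09 with 1 called, the 22 in the middle 0.16 with 4 called, and the 11 least abundant 0.14 with 1 called. Across the 44 members the log2 fold change had a Pearson r of -0.29 with mean FPKM and 0.10 with gene length, and across all tested genes the values were 0.08 and 0.14. Genes are not independent replicates and share the 6 libraries, so these are descriptions.

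Levels between genes depend on the length by which reads were divided. For 45 of 46 members the deposited length equals the merged exons of all GENCODE 29 transcripts (PSMC2 has 3538 bases against 3547), which for many members is far longer than the principal transcript. The ratio was 12.43 for PSMG4, 6.38 for PSMD6, 6.32 for PSMA6 and 5.16 for PSME3. Set on the length of the principal transcript, PSMG4 went from 1.37 to 17.0 in control cells and the core chaperones spanned 1.88-fold in place of 7.03-fold. Alpha ring levels spanned 30.7-fold as deposited, from PSMA6 to PSMA7, and 8.54-fold on the principal transcript, and the base chaperones 8.59-fold and 4.32-fold. In the other roles the span widened, from 51.6-fold to 75.9-fold in the beta ring, 7.28-fold to 9.0-fold in the ATPases, 1.47-fold to 1.71-fold in the non-ATPase base, 4.05-fold to 5.08-fold in the lid and 8.69-fold to 11.7-fold among the activators. The choice of length leaves the ratio of the group means within a gene as it is. The fitted log2 fold change can depend on it, because the added pseudocount makes differences of low genes smaller. The fit used the deposited lengths, and a fit on the principal transcript was not run.

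**Figure D5:**
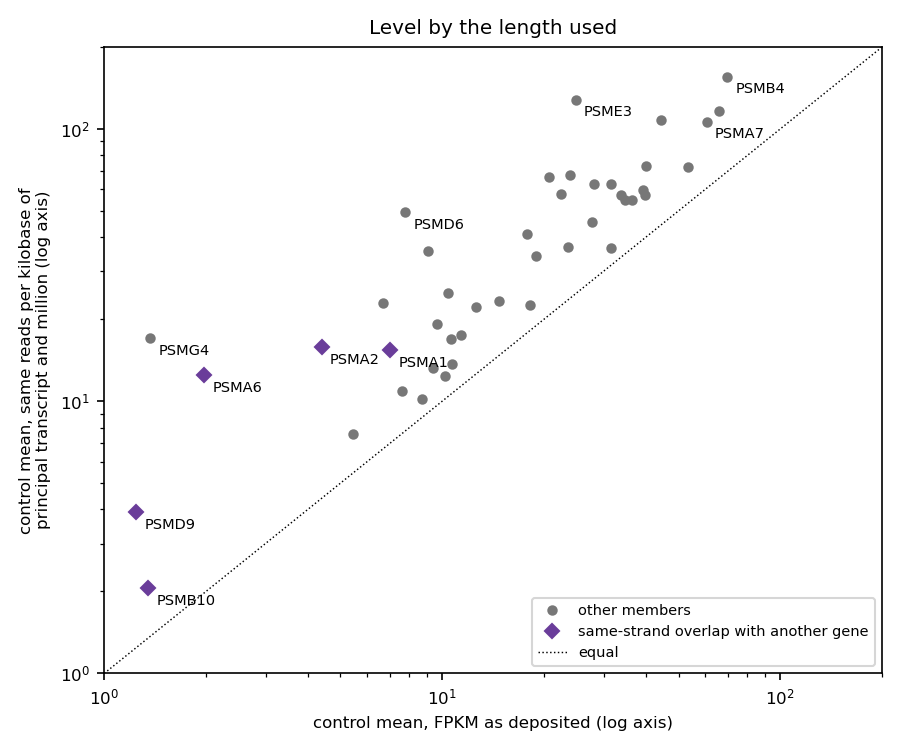
Control mean of each tested member as deposited (horizontal) and with the same reads set per kilobase of the principal GENCODE 29 transcript (vertical), both on log axes, with diamonds for genes that overlap another gene on the same strand. Points lie above the line of equality, PSMG4 furthest, from 1.37 to 17.0.

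Some members share sequence with other genes, so part of their reads may have been left out or split. The share of the principal transcript covered by exons of another gene on the same strand was 81.0% for PSMA6, 53.2% for PSMA1, 52.5% for PSMA2, 45.3% for PSMB10 and 43.8% for PSMD9. On the opposite strand it was 82.1% for PSMC1, 50.4% for PSMD7, 27.2% for PSMC5, 17.3% for PSMG2, 15.9% for PSMD13 and 12% for PSME2. No source used here tells whether the counting used strand, and these levels are uncertain. All 6 called members were among the 31 with under 1% overlap, whose median log2 fold change was 0.12. The 13 with more had a median of 0.16 and none called, where 8.22% of all tested genes were called higher. These sets also differed in level, with median control means of 23.6 and 9.07 FPKM. The part of overlap in the calls was not tested. Rows named as pseudogenes of PSMC1, PSMA6, PSMD10 and PSME2 reached at most 0.634, 0.564, 0.330 and 2.05 FPKM in any library.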

How the data were processed

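The authors deposited 1 table of FPKM per gene for 3 control and 3 fatty acid samples, with gene type, position and length. Per the submitters' processing notes, reads were aligned to GRCh38 with STAR 2.5.2 and counted with featureCounts of Subread 1.5.1. The strand setting and annotation release are not given in the sources used here, but the positions of all 46 members and the lengths of 45 equal those of GENCODE 29 (PSMC2 has 3538 bases against 3547). Versioned gene IDs match that release for 43 of the 46, so the release used is not settled. Per the labels' protocols, libraries were made from 100 ng of RNA with a stranded mRNA kit. Multiplying FPKM by length and depth gave whole reads for 100% of the values fine enough to tell (tolerance 0.02 reads beyond rounding), which gave the totals.

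Here log2(FPKM + 0.5) was fitted with limma 3.58.1 in R 4.3.3 (intensity trend) over the 14661 genes that averaged 0.5 FPKM or more, without a block, and p-values were adjusted by Benjamini-Hochberg over all of them. The pseudocount makes fold changes of low genes smaller than they are. No gene other than PSMA8 and PSMB11 among the members fell below the minimum. Within a group, read counts of every pair of libraries differed by more than sampling noise, so none was counted as a duplicate. The fit was tested on simulated data. The 17 alternatives covered the pseudocount (0.1 and 1), the minimum (none and 2 FPKM), 4 scalings, the trend, voom on the recovered reads, a replicate block and leaving out each library. Replicate numbers were not taken to pair samples. Values per sample are given for called members, the 2 with the smallest adjusted p in each class, the catalytic subunits and members below the minimum, and for other members where a role or promoter needs them. From the pathway list, called genes and NFE2L1, POMP, PSMB8 and PSMB9 are given. The members and lists were chosen with earlier results of these data known. Levels per principal transcript used the same reads and GENCODE 29, and motifs were searched in RefSeq windows.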

Additional observations from a re-analysis of the deposited data

How the results depend on the processing

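Both other pseudocounts gave the same counts of calls, 6 members and 10 pathway genes higher and none lower. For members, core, cap, activators and chaperones called higher and for the pathway list, no minimum gave 2, 2, 0, 0, 0 and 3, median-of-ratios scaling 2, 2, 0, 0, 0 and 5, quantile normalization 1, 1, 0, 0, 0 and 5, TPM 18, 7, 5, 2, 4 and 20, and nuclear scaling 1, 1, 0, 0, 0 and 5. In the same order, limma without the trend gave 0, 0, 0, 0, 0 and 2, voom on recovered reads 8, 2, 5, 1, 0 and 15, with 1 pathway gene lower, and a minimum of 2 FPKM 7, 2, 4, 0, 1 and 11. With a replicate block the counts were 2, 2, 0, 0, 0 and 6. The share of all genes called higher, 8.22% as deposited, was 2.25% with no minimum, 13.1% with 2 FPKM, 5.31% with median-of-ratios, 5.17% with quantile, 4.38% without the trend, 12.6% with voom and 5.57% with the block. These values do not settle whether replicate numbers pair the samples. Same-numbered deviations correlated at 0.0122, 0.0836 and 0.0224, and others at -0.094 to 0.0731. Control replicate 1 correlated best with fatty acid replicate 3, while control replicates 2 and 3 correlated best with the same number. Leaving out 1 library at a time gave 0 to 7 members higher and 0 to 1 lower, 0 to 3 core genes, 0 to 3 cap genes, 0 activators higher and 0 to 1 lower, 0 to 1 chaperones, and 0 to 7 pathway genes higher and 0 to 1 lower. Of the 6 members called, 6 were shared with the TPM calls, 5 with voom, 4 with the calls without control replicate 1, and 2, 1 or 0 with those of the smaller counts.

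Under the 17 alternatives signs turned only for genes that had not been called, with these log2 values. With TPM, PSMB5 was at 0.07, PSMB4 0.08, PSMC5 0.04, PSMD6 0.03, PSMF1 0.13, PSMG3 0.13 and NFE2L1 0.07. With median-of-ratios scaling PSMB6 was at -0.03 and PSMA7 at -0.04, with quantile normalization PSMB6 -0.04, PSMA7 -0.04 and PSMC3 -0.0045, with nuclear scaling PSMB6 -0.04, PSMA7 -0.05, PSMD9 -0.01 and PSMG4 -0.0035, and with voom PSMF1 0.0018. Over the fits that leave out 1 library, PSMB5 ranged from -0.12 to 0.02, PSMB6 from -0.03 to 0.04, PSMA7 from -0.06 to 0.07, PSMB4 from -0.13 to 0.04, PSMD3 from -0.03 to 0.16, PSMF1 from -0.04 to 0.04, PSMG3 from -0.08 to 0.09 and PSMG4 from -0.05 to 0.13. Fits that left out a library had fewer samples, and the cause of the other changes was not tested. Depth, from 6331370 to 15941353 reads, limits low genes most: PSMB10 had as few as 12 reads in a library.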
